A study of Mus musculus with 3 samples.

Results

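The cells described here are hair follicle keratinocytes of mouse back skin that carried transcripts of a set of 5 genes, Fgf18, Ramp1, Sncg, Myoc and Smoc1. A cell barcode was taken when at least 3 of these 5 genes had a transcript count, when Krt5, Krt14 and Krt15 together made up at least 0.3% of its unique molecular identifiers (UMIs, the counts of captured transcript molecules), and when no UMI of the leukocyte gene Ptprc was found. A barcode also needed at least 500 detected genes and under 15% mitochondrial UMIs. The rule took 731 cells, called Fgf18/Myoc cells below, out of 17496 cells that passed the keratin gate and 24884 cells kept of 27951 barcodes in all. The cells were thus chosen by their own UMI counts of these genes, so the levels of the 5 genes in them describe the choice and are not a finding.

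The study profiled single cells of back skin of C57BL/6 mice after deletion of Piezo1, a mechanically gated cation channel, in keratin 5-expressing basal epithelium. Every group carried the tamoxifen-inducible K5-Cre-er driver and received tamoxifen from postnatal day 48 to day 52. The control was K5-Cre-er/Piezo1fl/+/Tdfl/+, with 1 floxed Piezo1 allele, and was taken on day 62. The 2-week knockout was K5-Cre-er/Piezo1fl/fl/Tdfl/+ and was also taken on day 62. The 3-week knockout was K5-Cre-er/Piezo1fl/fl/Tdfl/fl and was taken on day 71. It had no control of its age and differed from the control in its Td alleles as well, so age, Td genotype and time after induction cannot be told apart in it. Each group was 1 droplet library, and the number of mice behind a library is not given in the sources used here. No difference below therefore has a replicate check, no p-value is given, and the 95% intervals cover counting error only. Both knockouts were set against the same control library.

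The bulge is the part of the resting hair follicle that houses its stem cells, in an outer layer marked by Cd34, Lgr5 and Lhx2 and an inner, keratin 6-positive layer. Bulge stem cells stay quiescent for long periods, and FGF and BMP signals are known to hold them in rest while Wnt signals drive the next growth phase. Fgf18 encodes a fibroblast growth factor that keeps follicle stem cells at rest. Ramp1 is the accessory subunit that turns the calcitonin receptor-like receptor into the receptor for the sensory neuropeptide CGRP. Sncg is gamma-synuclein, Myoc is myocilin, a secreted olfactomedin-domain glycoprotein best known from the eye's outflow tissue, and Smoc1 is a secreted calcium-binding matrix protein of the SPARC family.

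In GENCODE coordinates of mm10, Fgf18 lies on chromosome 11 (33117430 to 33147400, minus strand), Ramp1 on chromosome 1 (91179822 to 91225196, plus strand) and Myoc on the same chromosome (162639155 to 162649693, plus strand). Sncg lies on chromosome 14 (34370274 to 34374789, minus strand) and Smoc1 on chromosome 12 (81026808 to 81186414, plus strand). The 250 bases before the RefSeq transcription start are shown for Fgf18, Ramp1 and Myoc, whose windows lie clear of the annotated gene. That the rule genes were found together in the cells follows from the rule and is not a finding. The sequences are RefSeq's (build GRCm38.p6), written 5′ to 3′ on the gene's strand, and capitals mark the motifs searched for. The motifs were TATAAA (the TATA box), GGAAA (the core bound by NFAT factors), ACAAT (the core bound by SOX factors) and TAATTA (a homeodomain core), each on both strands, with no overlap between matches of different motifs in these windows.
Fgf18, chr11:33147401-33147650, minus strand: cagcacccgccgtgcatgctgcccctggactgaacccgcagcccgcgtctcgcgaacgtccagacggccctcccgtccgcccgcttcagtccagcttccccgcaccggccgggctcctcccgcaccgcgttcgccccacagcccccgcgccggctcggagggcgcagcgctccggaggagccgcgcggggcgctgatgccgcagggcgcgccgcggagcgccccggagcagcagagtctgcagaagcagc
Ramp1, chr1:91179572-91179821, plus strand: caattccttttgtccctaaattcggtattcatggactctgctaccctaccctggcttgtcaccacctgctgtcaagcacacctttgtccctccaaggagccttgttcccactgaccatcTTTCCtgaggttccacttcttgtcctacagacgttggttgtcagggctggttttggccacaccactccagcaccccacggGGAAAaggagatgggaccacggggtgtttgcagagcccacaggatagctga
Myoc, chr1:162638900-162639149, plus strand: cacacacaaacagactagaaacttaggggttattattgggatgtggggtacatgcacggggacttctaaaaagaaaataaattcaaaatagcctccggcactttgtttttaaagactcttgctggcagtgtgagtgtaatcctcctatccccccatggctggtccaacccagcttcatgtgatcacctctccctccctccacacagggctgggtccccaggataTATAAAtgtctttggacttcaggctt
The Fgf18 window was 77.2% G and C and held none of the 4 motifs. The Ramp1 window (54.0% G and C) held 2 matches to GGAAA, 1 of them on the other strand, and the Myoc window (46.8%) held 1 TATAAA close to the start. Of 32851 promoter windows of the same length, 12.4% held TATAAA, 55.6% GGAAA, 27.7% ACAAT and 4.84% TAATTA, and the median G and C content was 52.4%. A match describes the letters only and is not a site. Of the 5 genes, 4 were in the promoter table, and Sncg is not shown because its window overlaps the annotated gene.

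The kept cells numbered 5022 in the control, 9869 in the 2-week and 9993 in the 3-week library, with 62967542, 97960352 and 118610125 UMIs over all barcodes. The median depth of the Fgf18/Myoc cells was 7815.5 UMIs in the control, 6108 in the 2-week and 5465 in the 3-week knockout, near that of outer bulge cells (8755, 6999 and 6591 UMIs) and below that of the keratin-gated cells outside the bulge (13104, 9647.5 and 11683 UMIs). Their median mitochondrial share was 4.42%, 3.48% and 4.89%, against 3.48%, 2.67% and 3.69% in outer bulge cells. The doublet caller marked 123, 301 and 356 cells (2.45%, 3.05% and 3.56%), of which 4, 25 and 3 were Fgf18/Myoc cells. Pairs of libraries shared 13 to 21 barcodes, and 3 of these were Fgf18/Myoc cells in 1 of the libraries. Xist was found in 97.5% to 98.9% of the Fgf18/Myoc cells of each library, and Ddx3y and Eif2s3y in none. The rule asks for transcripts of 5 modestly expressed genes, whose detection in a given cell depends on its depth. Across keratin-gated cells, however, median depth was lower with 3 of the genes (7953.5, 6333 and 5366 UMIs) than with 0 (12507, 8639.5 and 11142 UMIs). Since depth also differed between libraries, values are also given after each cell was thinned to 5000 UMIs and chosen again, which left 49, 225 and 83 cells. A Krt14 UMI was found in 24.5%, 43.1% and 55.4% of these, against 55.6%, 54.1% and 64.8% of all Fgf18/Myoc cells. Thinning itself lowers detection. Values given below as thinned or at equal depth therefore reflect both depth and another, smaller choice of cells, and these were not told apart.

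The level of a gene is given below in CPM, UMI counts summed over the cells of a library and scaled to a common total, always in the order control, 2-week knockout, 3-week knockout. Fgf18 stood at 148 (126 to 174), 294 (277 to 311) and 432 (393 to 475) CPM in the Fgf18/Myoc cells and had a UMI in 70.0%, 85.9% and 84.3% of them. Ramp1 stood at 209, 222 and 346 CPM and was found in 82.2%, 80.9% and 89.3% of cells. Sncg stood at 207, 258 and 439 CPM and was found in 86.7%, 87.8% and 94.3%. These 3 genes were thus in most of the cells of each library. Myoc was found in fewer, 63.3%, 57.3% and 44.0%, at 242, 278 and 258 CPM. Smoc1 was found in 45.6%, 39.2% and 47.2%, at 77.6, 77.4 and 111 CPM. The name of the cells by Fgf18 and Myoc therefore holds for Fgf18 better than for Myoc, which had no UMI in the majority of the 3-week knockout cells.

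In cells outside the keratin gate, Fgf18 had a UMI in 1.56%, 2.35% and 1.07%, and Myoc in 1.46%, 1.14% and 0.71%, at median depths of 6502, 4562.5 and 5047.5 UMIs. Ramp1 was found in 14.5%, 5.26% and 12.1% of them, at 29.9, 8.82 and 22.1 CPM against 3.08, 3.12 and 2.19 CPM in the other keratin-gated cells. Which cell types carried it was not tested. At least 3 of the 5 genes were found in 4 of 1992, 7 of 1748 and 4 of 3648 of these cells. The combination was therefore rare outside the gate, at 0.201%, 0.400% and 0.110%.

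**Figure D1:**
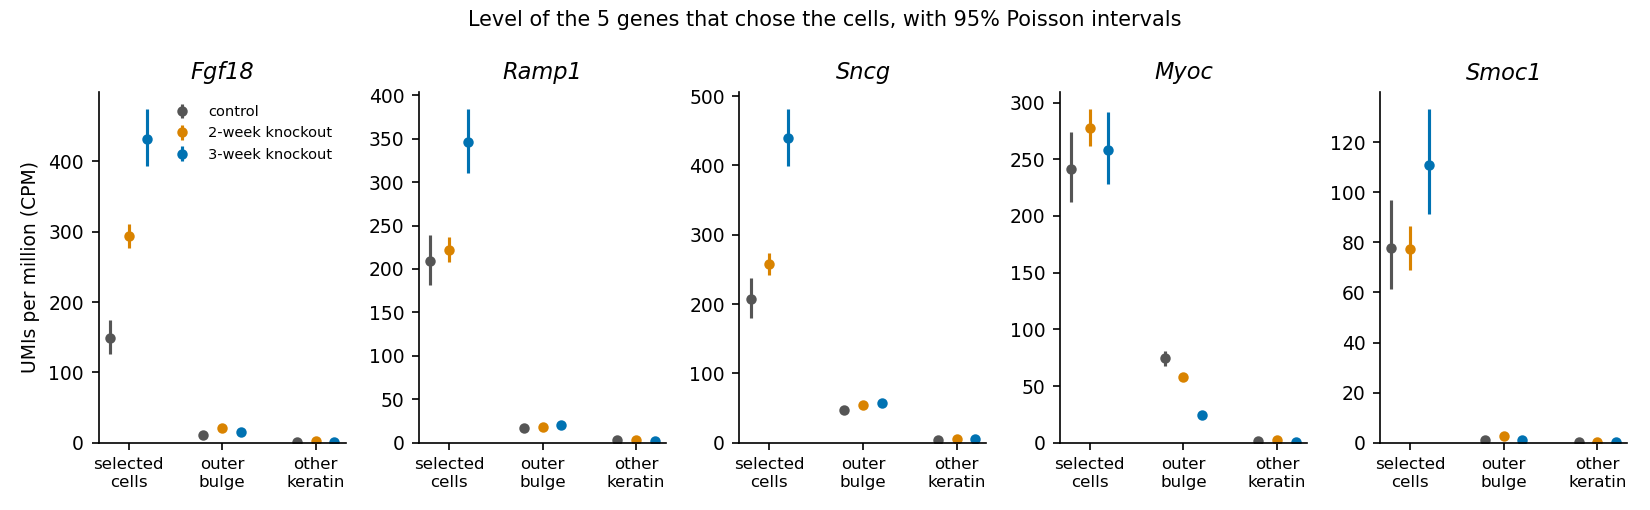
Each panel plots 1 of the 5 genes in UMIs scaled to a common total (CPM, linear axis from 0) for the selected Fgf18/Myoc cells, the outer bulge cells and the other keratin-gated cells, with points for the 3 libraries and bars for exact 95% Poisson intervals. The selected cells stand above the outer bulge cells for every gene because the rule chose them by these genes, and Fgf18 runs from 148 CPM in the control to 432 CPM in the 3-week knockout.

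The commonest combination was Fgf18 with Ramp1 and Sncg and neither of the others, in 15, 106 and 47 cells (16.7%, 22% and 29.6%). In the control, Ramp1 with Sncg and Myoc alone was as common, also in 15 cells. All 5 genes were found together in 9, 49 and 22 cells (10.0%, 10.2% and 13.8%). Myoc marked a difference inside the population. In the control, the 57 cells with a Myoc UMI had 104 CPM of Fgf18, and the 33 cells without one had 254 CPM. In the 2-week knockout the same values were 225 CPM in 276 cells and 411 CPM in 206 cells. In the 3-week knockout they were 420 CPM in 70 cells and 442 CPM in 89 cells, nearly level. The rule can itself set such a difference, since a cell without Myoc had to hold 3 of the other 4 genes. Pmp22, which the rule did not use, was higher in the Myoc-negative cells in the control (899 against 448 CPM) and the 2-week knockout (549 against 348 CPM), but not in the 3-week knockout (715 against 754 CPM).

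At the threshold, the cells just inside (3 genes) numbered 56, 285 and 87, and the cells just outside (2 genes) 120, 571 and 132. Fgf18 was 96.8, 240 and 340 CPM just inside and 36.7, 71.9 and 60.7 CPM just outside. The share of cells with at least 3 of the 5 outer bulge genes Cd34, Postn, Lgr5, Krt24 and Lhx2 was 94.6%, 82.5% and 81.6% just inside and 89.2%, 91.2% and 81.1% just outside. Cells just outside the threshold therefore carried outer bulge genes about as often.

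The bulge label was read against markers the rule had not used, and these did not all go the same way. At least 3 of those 5 outer bulge genes were found in 93.3%, 81.7% and 81.1% of the Fgf18/Myoc cells. In keratin-gated cells with none of the rule genes the shares were 11.1%, 25.2% and 9.49%. Cd34, the sialomucin that marks the mouse bulge, stood at 461, 426 and 478 CPM, against 353, 382 and 259 CPM in the outer bulge cells. Those comparison cells were keratin-gated cells outside the population with at least 3 of the 5 outer bulge genes, 615, 3055 and 946 in number, so the levels of these 5 genes in them follow from their choice. Sox9, a transcription factor that maintains the bulge, stood at 1042, 946 and 682 CPM, against 710, 767 and 437 CPM in the outer bulge cells. Nfatc1, which keeps bulge stem cells quiescent, stood at 157, 170 and 194 CPM, against 192, 201 and 164 CPM. Transcription factors of the bulge were thus present at similar levels in both.

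Some outer bulge genes were lower in the Fgf18/Myoc cells. Of 9 outer bulge markers compared, 2 were at least 1.5-fold lower in all 3 libraries and none higher. Among all genes compared, 3.26% were lower and 2.36% higher by as much. Krt24, 1 of the 5 genes that chose the comparison cells, stood at 96.3, 129 and 97 CPM against 253, 292 and 252 CPM. Npnt, the matrix protein that anchors the arrector pili muscle, stood at 33.4, 37.2 and 9.89 CPM against 82.7, 88.0 and 49.4 CPM. Dkk3 stood at 130, 109 and 98.9 CPM against 207, 215 and 160 CPM. Inner bulge markers gave no clear placement. Krt75, a keratin of the companion and inner layer, was low in both but higher in the Fgf18/Myoc cells, at 13.8, 22.8 and 23.7 CPM against 4.35, 6.91 and 5.71 CPM. Bmp6, a quiescence signal of the inner bulge, stood at 22.6, 25.3 and 22.8 CPM against 7.98, 7.10 and 4.54 CPM. Krt6a, in contrast, was lower in the Fgf18/Myoc cells in the control and the 2-week knockout, at 688 and 545 CPM against 1123 and 707 CPM. At 3 weeks it stood at 610 against 402 CPM, and Krt6b was at 0. The hair germ genes Lef1 (3.93, 6.45 and 1.98 CPM) and Gli1 (2.95, 5.95 and 0 CPM) were near their floor, and Shh was at 0.

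The cells lay together by genes other than the 5 rule genes. Among the 15 nearest neighbours of an Fgf18/Myoc cell, computed within each library from 2000 variable genes without the 5 rule genes, 51.8%, 53% and 72.3% were Fgf18/Myoc cells themselves, against 2.97%, 5.94% and 2.51% of all keratin-gated cells. Outer bulge cells made up most of the remaining neighbours, at 33.3%, 37.1% and 19.8%. Within the bulge, Fgf18/Myoc cells were 12.8%, 13.6% and 14.4% of cells, and 5.06%, 5.98% and 4.12% of the neighbours of outer bulge cells. The gate keratins Krt5, Krt14 and Krt15 were not left out, and their part in this was not tested. At least 8 of the 15 neighbours were Fgf18/Myoc cells for 53 of 90, 296 of 482 and 132 of 159 cells (58.9%, 61.4% and 83.0%). None was for 16, 63 and 20 cells, so a minority of the cells met the rule while lying among other keratinocytes.

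Fgf18/Myoc cells were 90 of 3030 keratin-gated cells in the control (2.97%, Clopper-Pearson interval 2.40% to 3.64%). They were 482 of 8121 in the 2-week knockout (5.94%, 5.43% to 6.47%) and 159 of 6345 in the 3-week knockout (2.51%, 2.14% to 2.92%). The 2-week share was above the other libraries beyond counting error. After thinning to 5000 UMIs the shares were 1.75%, 3.31% and 1.5%, in the same order. Within the bulge the share was level: Fgf18/Myoc cells were 12.8% (10.4% to 15.5%), 13.6% (12.5% to 14.8%) and 14.4% (12.4% to 16.6%) of the Fgf18/Myoc and outer bulge cells together. The higher 2-week share of keratinocytes thus came with more outer bulge cells, 3055 of 8121 against 615 of 3030 in the control and 946 of 6345 at 3 weeks.

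**Figure D2:**
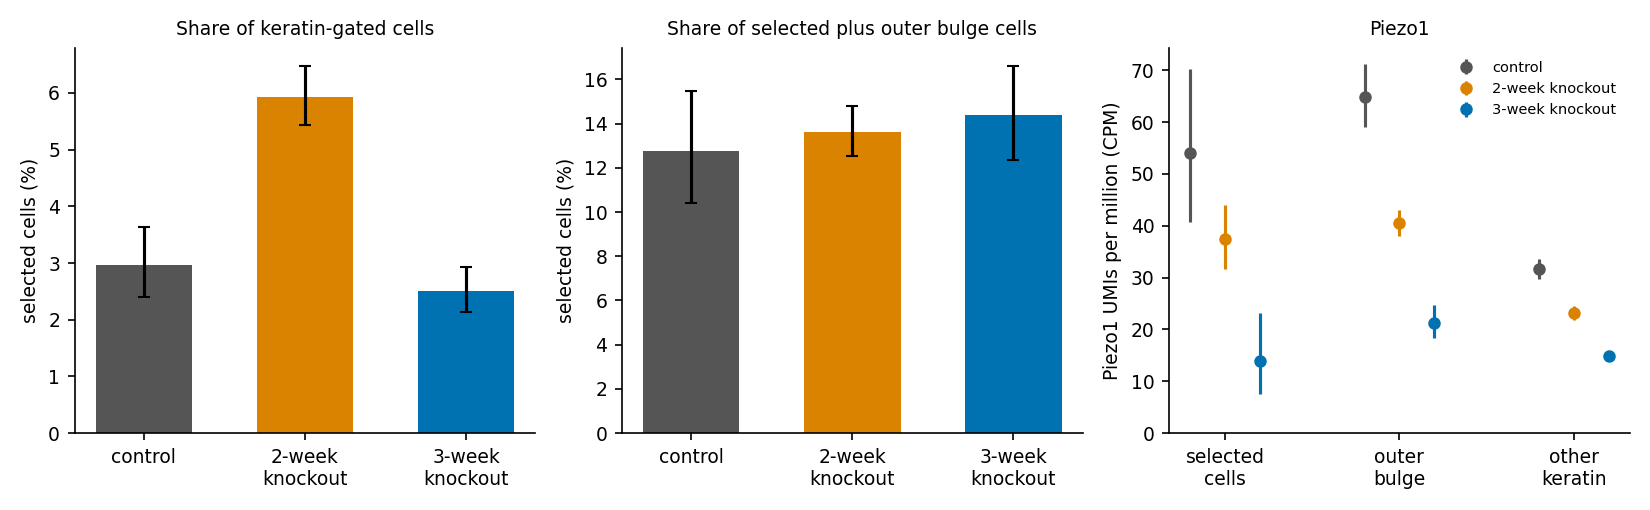
The left and middle panels show the Fgf18/Myoc cells as a percent of keratin-gated cells and of bulge cells in each library, with exact 95% binomial intervals, and the right panel shows Piezo1 in UMIs scaled to a common total (CPM) with Poisson intervals in 3 kinds of cell. The share of keratin-gated cells is highest in the 2-week knockout (5.94%), the share of bulge cells is between 12.8% and 14.4% in all 3, and Piezo1 is lowest in the 3-week knockout.

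Piezo1 (chromosome 8, 122481698 to 122551329, minus strand) was the targeted gene. It stood at 54.0, 37.5 and 13.9 CPM in the Fgf18/Myoc cells (55, 151 and 14 UMIs) and was found in 41.1%, 23% and 6.92% of them. The ratio to control was 0.694 (0.506 to 0.962) at 2 weeks and 0.256 (0.132 to 0.467) at 3 weeks. Outer bulge cells had 64.8, 40.5 and 21.3 CPM, with ratios of 0.624 (0.558 to 0.699) and 0.329 (0.275 to 0.391). Cells outside the keratin gate, whose make-up was not checked and of which 29.7%, 40.8% and 51.5% had a Krt5 UMI, had ratios of 0.640 (0.573 to 0.715) and 0.532 (0.485 to 0.584). The 2-week ratio in the Fgf18/Myoc cells was thus no further below 1 than that outside the gate. In the thinned cells, Piezo1 had only 8, 48 and 7 UMIs and stood at 32.7 (14.1 to 64.3), 42.7 (31.5 to 56.6) and 16.9 (6.78 to 34.8) CPM. Its 2-week ratio was then 1.31 and its 3-week ratio 0.517, so at this depth the 2-week difference in these cells was not detectable apart from counting error. Which exons the floxed allele removes is not given in the sources used here, and 3′-end counts may not read the deletion.

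The Fgf18/Myoc cells were next set beside the outer bulge cells within each library, as a description, since their own transcripts chose them. Of 2334 genes compared, 16 (0.686%) were higher by 2-fold or more in all 3 libraries and 11 (0.471%) lower by as much. Rabgap1l, a GTPase-activating protein for Rab proteins, led the higher genes, at 201, 274 and 227 CPM against 35.4, 39.3 and 34.0 CPM. That is 5.69, 6.96 and 6.66 times the outer bulge level. Pmp22, a 4-pass membrane protein of compact myelin and epithelial junctions, stood at 582, 423 and 732 CPM against 101, 95.2 and 104 CPM (5.78, 4.44 and 7.02 times). Fmn1, a formin that nucleates actin filaments at junctions, stood at 74.6, 59.8 and 108 CPM against 14.8, 14.2 and 10.7 CPM. These 3 genes were the most separate from the outer bulge.

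Genes of epithelial differentiation and adhesion were also among the 15 highest ratios. Zfp750, a transcription factor of epidermal differentiation, stood at 160, 137 and 145 CPM against 37.1, 32.3 and 38.8 CPM. Nectin4, an adhesion molecule of the adherens junction, stood at 65.8, 61.8 and 60.3 CPM against 18.6, 13.7 and 16.2 CPM. Enzymes and signalling proteins made up much of the remainder. Lipg, the endothelial lipase, had ratios of 4.08, 4.47 and 4.50. Them5, an acyl-CoA thioesterase, had 3.66, 4.29 and 5.69. Gpc6, a glypican that carries growth factors at the cell surface, stood at 70.7, 67.7 and 106 CPM against 20.5, 23 and 18.9 CPM. The adaptor Sh3kbp1 (2.87, 2.78 and 6.01), the scaffold Homer2 (2.66, 3.23 and 3.95), the tubulin polyglutamylase Ttll7 (2.65, 3.1 and 7.03) and the MAP kinase phosphatase Dusp10 (2.73, 2.63 and 5.14) were higher in each library too. The small GTPase Rhou had ratios of 2.34, 2.64 and 4.55, and the p53 target Trp53inp1 had 2.25, 2.18 and 3.55.

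A pair of potassium channels was higher in the Fgf18/Myoc cells. Kcnma1, the calcium-activated BK channel, stood at 60.9, 51.6 and 56.4 CPM against 26.0, 20.8 and 13.5 CPM in the outer bulge and under 1 CPM in the other keratin-gated cells. Kcnk2, a mechanically gated background channel, stood at 186, 210 and 301 CPM against 103, 131 and 122 CPM (1.80, 1.60 and 2.47 times). It was the 1 gene of 3 compared in the list of mechanosensitive channels that was at least 1.5-fold higher in every library. The background for that threshold was 2.36% of genes higher and 3.26% lower.

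Among the genes lower in the Fgf18/Myoc cells, Nppc, which encodes C-type natriuretic peptide, stood at 27.5, 40.4 and 9.89 CPM against 223, 165 and 61.7 CPM (0.123, 0.246 and 0.160 times). Angptl7, a secreted angiopoietin-like protein, stood at 13.8, 59.8 and 12.9 CPM against 112, 138 and 113 CPM. Sorl1, a sorting receptor, stood at 17.7, 31.5 and 8.90 CPM against 75.3, 75.5 and 70.2 CPM. These 3 were the genes most depleted. The focal adhesion genes Tns4 (167, 181 and 119 CPM against 405, 378 and 273 CPM) and Nedd9 (123, 104 and 52.4 CPM against 348, 217 and 155 CPM) were lower, as was the caldesmon gene Cald1 (87.4, 47.9 and 36.6 CPM against 172, 104 and 78.7 CPM). Cav1, the caveolar coat protein, stood at 80.5, 100.5 and 47.5 CPM against 204, 195 and 178 CPM. The orphan nuclear receptor Nr4a1 stood at 591, 827 and 655 CPM against 1382, 1739 and 1487 CPM. In the thinned data all 15 genes named as higher and all 15 as lower remained past 1.5-fold in every library.

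**Figure D3:**
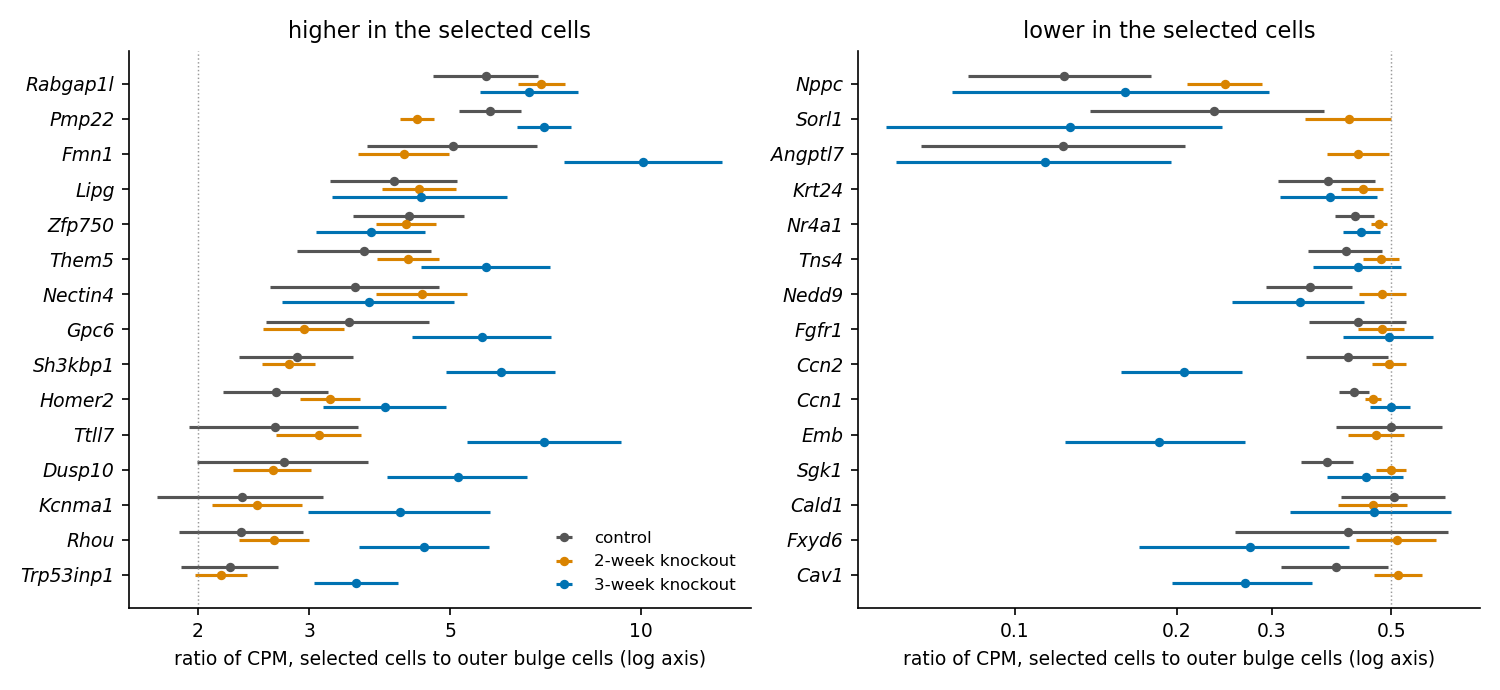
The 15 genes with the largest and the 15 with the smallest ratios of CPM, selected Fgf18/Myoc cells over outer bulge cells, are plotted on log axes with exact 95% intervals, 1 point per library. Rabgap1l and Pmp22 lie above 4 in every library, and most intervals of the lower genes, such as Nppc and Sorl1, lie wholly under 0.5.

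Gene lists gave the same comparison by pathway, as counts of members at least 1.5-fold apart in all 3 libraries. In the FGF list, 1 of 5 compared genes was higher, Fgf18 itself, and 3 were lower. Those were the receptor Fgfr1 (98.2, 109 and 114 CPM against 226, 226 and 230 CPM) and the feedback inhibitors Dusp6 (191, 135 and 88.0 CPM against 421, 210 and 166 CPM) and Spred1 (40.3, 39.9 and 25.7 CPM against 82.0, 65.8 and 72.8 CPM). The cells with the ligand thus had less of 1 of its receptors and of feedback genes of the pathway. Of 7 Wnt genes, 3 were lower and none higher: the inhibitors Sfrp1 (134, 153 and 99.9 CPM against 252, 310 and 217 CPM) and Dkk3 and the receptor Fzd2 (104, 123 and 103 CPM against 196, 242 and 217 CPM).

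Of 7 compared genes in the list of YAP and TAZ targets and pathway genes, 3 were lower and none higher. Ccn1, a matricellular protein, stood at 1049, 877 and 562 CPM against 2458, 1895 and 1126 CPM. Ccn2 stood at 138, 197 and 61.3 CPM against 331, 398 and 298 CPM. Of 4 compared genes in the list of EGF ligands and receptors 2 were lower, among them the ligand Hbegf (695, 784 and 437 CPM against 1417, 1419.9 and 1166 CPM). None of 16 stem cell transcription factors, 23 oxidative phosphorylation genes, 11 heat shock genes or 5 MHC class I genes was past 1.5-fold in every library. For Ramp1, the partner receptor gene Calcrl was low, at 2.95, 5.21 and 5.94 CPM, and Calcr was at 0.

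Keratin content set the Fgf18/Myoc cells apart further. Krt15, the bulge keratin, was found in every one of them, at 6865, 8625 and 12556 CPM against 5091, 6579 and 5487 CPM in the outer bulge. Krt14, the usual basal partner of Krt5, was found in only 55.6%, 54.1% and 64.8% of them, against 95.9%, 95.4% and 97.0% of outer bulge cells. Cells outside the keratin gate had a UMI of it in 41.3%, 44.1% and 62.5%. The median cell had 122, 155 and 182 CPM of Krt14, against 3518, 3404 and 4084 CPM in the outer bulge. A Krt14 UMI was thus found in the 3-week cells about as often as outside the gate, and somewhat more often in the other libraries. Krt5 stood at 2647, 3544 and 4051 CPM against 2453, 3287 and 3397 CPM, and all 3 keratins were part of the gate.

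Fgf18/Myoc cells were therefore described with and without a Krt14 UMI. The cells without one numbered 40, 221 and 56, with median depths of 7348.5, 5306 and 5193 UMIs, against 8989, 7457 and 5711 UMIs in the 50, 261 and 103 cells with one. The genes most different carried over between libraries. Fcgbp, a mucin-like secreted protein, stood at 184, 254 and 116 CPM with Krt14 and 6.62, 11.5 and 6.77 CPM without. Ly6d stood at 925, 851 and 393 CPM with and 13.2, 37.0 and 54.1 CPM without. Krt24, an outer bulge keratin, stood at 129, 180 and 127 CPM with and 19.8, 11.5 and 23.7 CPM without. The matrix protein Thbs1 (1212, 625 and 296 CPM with, 245, 178 and 57.5 CPM without) and Nr4a1 (740, 1094 and 816 CPM with, 238, 209 and 264 CPM without) also went with Krt14.

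Of the 15 genes named above as higher than in the outer bulge, all 15 were higher without Krt14 than with it in every library. Of the 15 named as lower, 14 were lower without Krt14, the exception being Cald1. A difference of any size counted here, and some 3-week pairs were nearly level. Lipg stood at 64.3 CPM without and 61.5 CPM with Krt14, and Tns4 at 118.4 CPM without and 118.8 CPM with. Rabgap1l stood at 361, 549 and 311 CPM without Krt14 and 134, 155 and 192 CPM with it. Zfp750 stood at 222, 214 and 220 CPM without and 134, 104 and 115 CPM with. Other genes, not among those 15, were also higher without Krt14. Cacna1c, the pore subunit of an L-type calcium channel, stood at 92.6, 80.5 and 74.4 CPM without and 33.5, 22.4 and 36.3 CPM with. Chat, choline acetyltransferase, stood at 66.2, 87.1 and 84.6 CPM without and 32.1, 40.2 and 50.3 CPM with. Foxp1, a forkhead factor linked to bulge quiescence, stood at 810, 817 and 846 CPM without and 479, 493 and 520 CPM with. In the control, Fgf18 was 281 CPM without Krt14 and 92.2 CPM with it. The Krt14 split used the readout of the same cells and is a description.

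**Figure D4:**
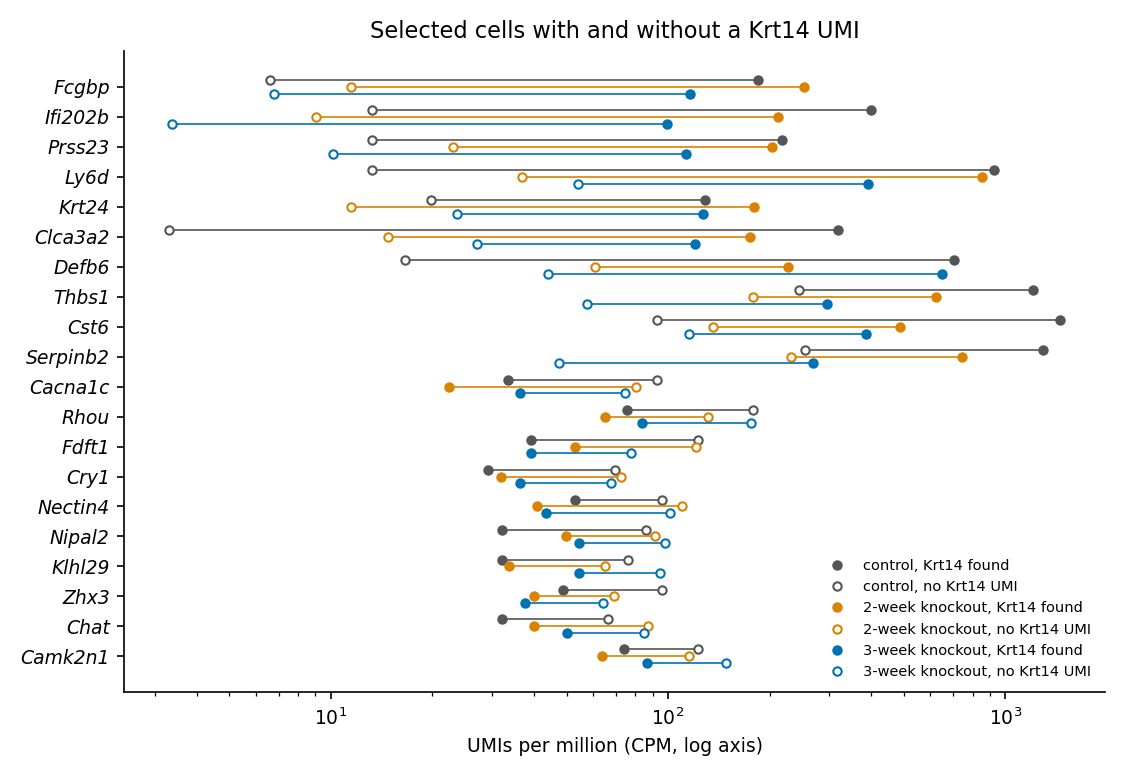
For each of 20 genes, filled points give UMIs scaled to a common total (CPM, log axis) in Fgf18/Myoc cells with a Krt14 UMI and open points those without, joined by a line for each library. The upper 10 genes, from Fcgbp to Serpinb2, are higher with Krt14 in all 3 libraries, and the lower 10, from Cacna1c to Camk2n1, are higher without it.

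Transcripts of some other cell types came mostly from single cells, and those of others were spread. The 6 fibroblast markers summed to 280, 205 and 1047 CPM, of which 69.1%, 86.0% and 61.2% came from 1 cell of each library. The 7 immune markers summed to 6.88, 104 and 22.8 CPM, with 80.0% of the 2-week UMIs in 1 cell and the 23 UMIs of the 3-week library spread over 21 cells. The 5 Schwann cell markers summed to 4.91, 4.47 and 8.90 CPM, with Cdh19 at 0. The 6 endothelial markers stayed at 3.96 to 9.43 CPM with Kdr, Cldn5 and Tie1 at 0. The 7 cycling genes were found in 10, 24 and 8 cells, and 5 cells held 97.2%, 84.7% and 98.6% of their UMIs. Few of the Fgf18/Myoc cells thus showed transcripts of division. Melanocyte markers were found in 60%, 55.4% and 53.5% of cells, with at most 9.90% of UMIs in 1 cell, and sebaceous markers in 70%, 48.3% and 51.6%. Of the melanocyte list, Mitf stood at 117, 123 and 141 CPM, against 105, 115 and 68.0 CPM in outer bulge cells, and Mlana at 0, 0.496 and 0 CPM. The 8 suprabasal markers were found in 100%, 98.8% and 100% of cells, but the top 5 cells held 64.6%, 48.9% and 15.3% of their UMIs. They were thus concentrated in the control and the 2-week knockout and more spread at 3 weeks. Of 7 compared with the outer bulge, 1 was at least 1.5-fold higher in every library and none lower. It was Sbsn, at 2072, 2519 and 2941 CPM against 1189, 992 and 822 CPM.

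The levels of the 5 rule genes across conditions describe cells that these genes chose, and support no difference between conditions. For Fgf18 the ratio to control in the Fgf18/Myoc cells was 1.98 (1.67 to 2.36) at 2 weeks and 2.92 (2.42 to 3.53) at 3 weeks. Because the rule needs UMIs of these genes and depth differed between libraries, the thinned values stand beside these: 253 (194 to 324), 428 (390 to 468) and 516 (449 to 590) CPM. That is a ratio of 1.69 and 2.04, in cells chosen again by the same genes. In the outer bulge cells its ratios were 1.89 and 1.32, on levels of 11.2, 21.1 and 14.8 CPM. Over Fgf18/Myoc and outer bulge cells together, Fgf18 stood at 28.8, 57.5 and 58.8 CPM. That sum still depends on the rule, since 6, 88 and 30 Fgf18/Myoc cells with under 3 outer bulge genes entered it only through the rule genes, at 118, 415 and 463 CPM of Fgf18.

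For the other rule genes the ratios moved at equal depth. Sncg had ratios of 1.24 and 2.12 (1.80 to 2.51 at 3 weeks), which became 0.829 and 1.13 after thinning. Ramp1 had 1.06 and 1.66, which became 0.782 and 0.933. Smoc1 had 0.998 and 1.43, which became 0.677 and 0.829. Each of these 3 genes therefore turned its direction in at least 1 comparison in the smaller set of cells chosen again at 5000 UMIs. Myoc had ratios of 1.15 and 1.07 in the Fgf18/Myoc cells and of 0.780 and 0.326 in the outer bulge cells. Its outer bulge levels were 74.4 CPM in the control and 58.0 and 24.2 CPM in the knockouts.

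Between the 2-week knockout and the control, 24 of 2768 genes ranked in the Fgf18/Myoc cells (0.867%) reached 2-fold on the higher side and 26 (0.939%) on the lower side. Between the 3-week knockout and the control, 51 of 2858 (1.78%) reached it on the higher side and 140 (4.9%) on the lower side. With median of ratios scaling the 3-week split was 96 higher and 89 lower. The median gene lay at -0.11 on the log2 scale at 2 weeks and -0.15 at 3 weeks with the library totals as scale. The split between higher and lower at 3 weeks thus depended on the scaling. With the cell highest for each gene left out of each library, 22 of 24 and 16 of 26 genes stayed past 2-fold at 2 weeks, and 47 of 51 and 120 of 140 at 3 weeks.

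Among the 10 genes with the largest 2-week ratios on each side, those present in many cells were few. Hes1, a transcriptional repressor induced by Notch and other signals, stood at 87.4, 273 and 294 CPM and was found in 37.8%, 55.8% and 55.3% of cells. Its ratio was 3.12 (2.52 to 3.92) at 2 weeks and 3.36 (2.64 to 4.31) at 3 weeks. At equal depth it was 2.69 and 2.51, and the outer bulge cells had 3.22 and 2.11. Dbp, a transcription factor at the output of the circadian clock, stood at 11.8, 57.1 and 45.5 CPM, 4.84 (2.72 to 9.51) times the control at 2 weeks. It was found in 7, 136 and 33 cells. Nmt1, an N-myristoyltransferase, stood at 20.6, 66.2 and 48.5 CPM (3.21, 2.06 to 5.27). Angptl7 stood at 13.8, 59.8 and 12.9 CPM, a difference seen at 2 weeks but not at 3 weeks, and its 2-week ratio was 0.497 in the cells without Krt14. Stfa3, a stefin family protease inhibitor with near-identical copies, stood at 29.5, 98.5 and 42.5 CPM.

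Lower at 2 weeks were Tnfaip3, Man1a and Ifi27l2a, each in more than a handful of cells. Tnfaip3, a brake on NF-kappaB signalling, stood at 164, 59.3 and 45.5 CPM (0.362, 0.295 to 0.443). It was 0.894 times the control in cells without Krt14. Man1a, a Golgi mannosidase, stood at 60.9, 23.1 and 29.7 CPM. Ifi27l2a, an interferon-induced gene, stood at 197, 48.4 and 25.7 CPM, with ratios of 0.245 (0.20 to 0.30) and 0.130. Its ratio in the thinned cells was 0.871 at 2 weeks and 0.787 at 3 weeks, and it was found in 24, 74 and 17 cells.

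The remaining 2-week extremes rested on few cells. For Lor and Wfdc21, higher at 2 weeks, 98.2% of the UMIs came from 1 cell, and without it their ratios were 0.432 and 0.762. Cd74 (2.95, 61.3 and 16.8 CPM), Asprv1 (3.93, 70.5 and 19.8 CPM) and Crct1 (10.8, 131 and 78.2 CPM) had 76.5% to 81.4% of theirs in 1 cell. Without it their ratios were 7.19, 5.51 and 3.99, and in the thinned cells 0.363, 0.145 and 1.31. For Cstdc5, Krt79, Defb6 and Cst6, lower at 2 weeks, 1 control cell held 96.2%, 88.0%, 95.9% and 92.8%, and without it their ratios were 4.62, 1.34, 3.47 and 1.68. Dcn (76.6, 13.1 and 286 CPM) was found in 10, 4 and 11 cells, Pdk4 (81.5, 13.6 and 7.91 CPM) in 5, 7 and 2, and Hpgds stood at 53, 15.9 and 0 CPM. Without the highest cells these 3 kept ratios of 0.0589, 0.263 and 0.382, and in the thinned cells Pdk4 and Hpgds had 2.18 and 1.09.

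At 3 weeks the cornified envelope genes Lor and Lce1m were higher over many cells. Lor stood at 21.6, 472 and 227 CPM, was found in 57.2% of the 3-week cells and had a ratio of 10.5, or 8.12 at equal depth. Its outer bulge ratio was 0.719. Lce1m stood at 0.982, 10.2 and 67.3 CPM in 1, 11 and 52 cells, a ratio of 68.5 with an interval of 11.9 to 2740 because the control had 1 UMI. Its outer bulge ratio was 9.11. Crct1, in the same gene cluster of the epidermal differentiation complex, was found in 49 of the 3-week cells with a ratio of 7.23. Other keratin-gated cells had a ratio of 124 for Lce1m, and the part of free RNA in these values was not tested.

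Other genes among the highest at 3 weeks were in few cells. Hist1h1b (2.95, 16.9 and 168 CPM) was in 3 cells and Meg3 (1.96, 1.49 and 80.1 CPM) in 2. Cxcl2 (0, 45.7 and 92.0 CPM) had a ratio of 31.2 against a floor of 3 control counts, but without the highest cell 1 UMI was left and the ratio was 0.338. In the thinned cells Hist1h1b, Meg3 and Cxcl2 had ratios of 0.197, 0.885 and 0.590. Hist1h2ae had a ratio of 7.91, Wfdc21 of 21.9 and Aebp1 of 5.77, and each stood under 2-fold in the thinned cells, at 0.885, 1.77 and 0.590.

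Wdr89, a WD-repeat protein gene, was among the 10 lowest ratios at 3 weeks. It stood at 674, 420 and 63.3 CPM and was found in 86 of 90, 435 of 482 and 51 of 159 cells. Its 3-week ratio was 0.0940, that is 10.6-fold lower, and 0.106 at equal depth. The ratio was 0.124 in outer bulge cells and 0.114 in other keratin-gated cells, so the level was about as far below control in the other keratin-gated cells of that library. S100a3, a calcium-binding protein of the hair cuticle, stood at 81.5, 37.0 and 9.89 CPM (0.121) and Krt16 at 458, 399 and 84.1 CPM (0.184).

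The suprabasal genes Krt1 (746, 616 and 66.3 CPM), Krt10 (1229, 1093 and 253 CPM) and Mt4 (155, 202 and 18.8 CPM) were lower at 3 weeks in the sums. Krt1 was found in 13, 67 and 42 cells and Krt10 in 41, 164 and 99 cells. Their ratios of 0.0888 and 0.206 became 0.886 and 0.821 in the thinned cells and 2.66 and 3.18 in the cells without Krt14. The ratios thus turned with the cells included. Hpgds, at 0 in the 3-week cells, had a ratio of 0.0560 against a floor of 3 counts, but was found in only 5.56% of control cells. Its 3-week log2 ratio turned to 0.82 in the thinned cells and 1.62 in the cells without Krt14. The 3-week ratio of Hpgds in the outer bulge was 1.64.

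**Figure D5:**
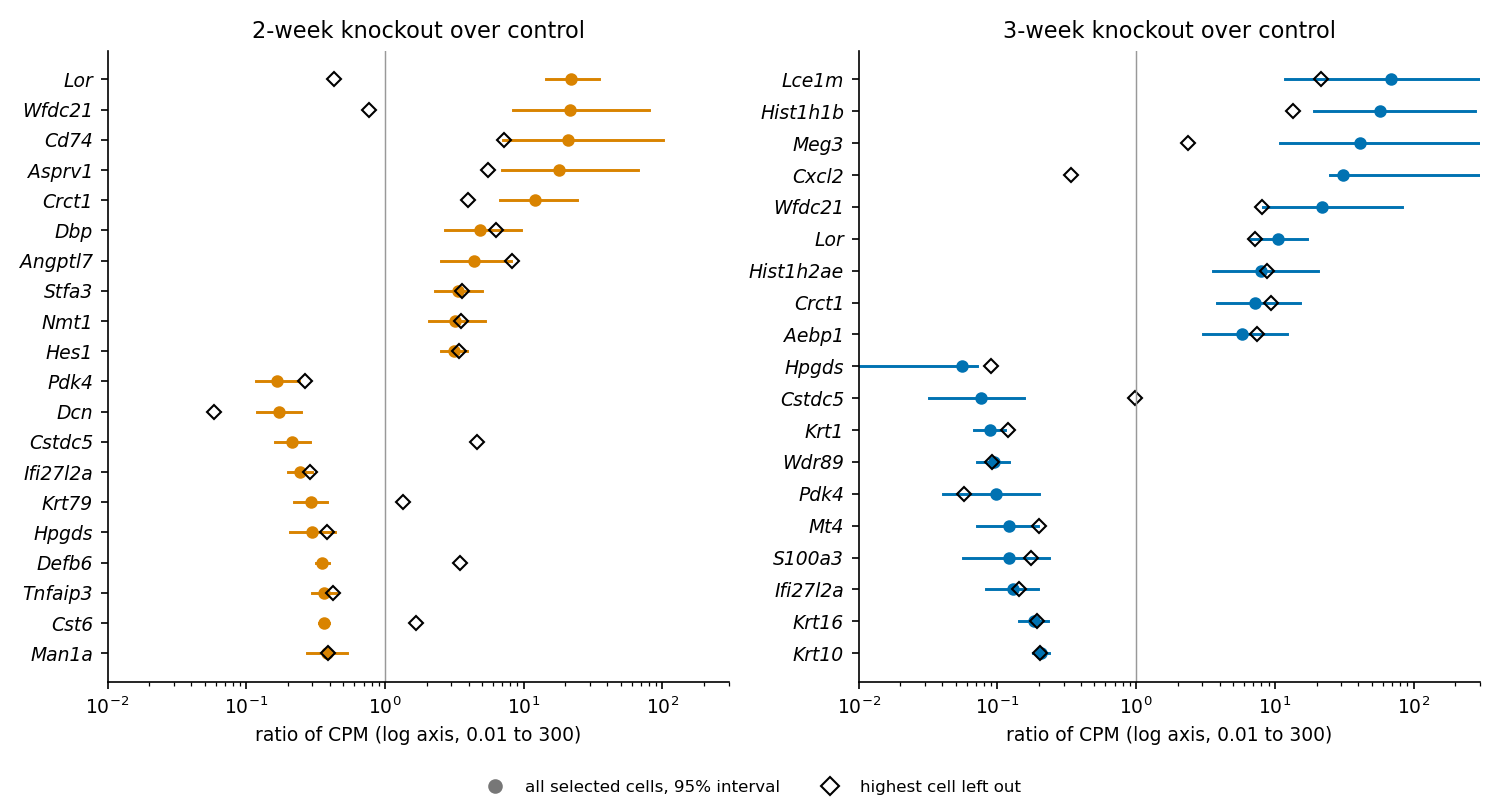
Ratios of CPM between knockout and control in Fgf18/Myoc cells (log axes) are plotted for genes among the 10 highest and the 10 lowest at 2 weeks (left) and 3 weeks (right), with exact 95% intervals clipped at the axis ends and ratios against 0 counts set at a floor of 3 counts. Open diamonds leave out the highest cell of each library: Hes1 and Wdr89 hardly move, while Lor and Cst6 at 2 weeks cross 1.

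A further set of genes, chosen after their values were seen for being found in many cells, differed in both knockouts. Plp2, a membrane proteolipid, stood at 63.8, 147 and 225 CPM and was found in 48.9%, 64.5% and 71.1% of cells. Its ratios were 2.30 (1.78 to 3.02) and 3.52 (2.66 to 4.71), and 2.25 and 3.25 in the outer bulge. The ephrin ligand Efna3 stood at 21.6, 62.3 and 72.2 CPM, and Scx, the bHLH factor scleraxis, at 25.5, 64.0 and 67.3 CPM. These genes were higher at both times.

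Neat1 and Eva1a were lower at both times. Neat1, the long noncoding RNA of nuclear paraspeckles, stood at 5342, 2272 and 2838 CPM, a 2-week ratio of 0.425, and at 4739, 2346 and 2586 CPM at equal depth. Its outer bulge ratio at 2 weeks was 0.477. Eva1a, a regulator of autophagy, stood at 213, 93.0 and 69.3 CPM and was found in 71.1%, 45.0% and 28.9% of cells, with ratios of 0.437 and 0.325. Thbs1 stood at 925, 490 and 227 CPM, with ratios of 0.530 and 0.245, but at 2 weeks its ratio was 1.17 in the thinned cells. Phlda1 (462, 250 and 124 CPM), Pmepa1 (182, 114 and 41.6 CPM) and the connexin gene Gja1 (208, 136 and 64.3 CPM) were lowest at 3 weeks.

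By gene list, counts of members at least 1.5-fold apart from the control were read against 3.54% higher and 7.59% lower among all ranked genes at 2 weeks, and 7.77% and 18.1% at 3 weeks. Of 23 oxidative phosphorylation genes, 4 were higher and none lower at 2 weeks, and 5 higher and none lower at 3 weeks, with list medians of 0.30 and 0.36 on the log2 scale. The outer bulge medians were 0.29 and 0.43. The ATP synthase subunit gene Atp5k (97.2, 215 and 264 CPM), the complex I gene Ndufa3 (46.2, 103 and 81.1 CPM) and the succinate dehydrogenase gene Sdhb (66.8, 116 and 97.0 CPM) were among them. At equal depth 3 of the 4 and 3 of the 5 remained past 1.5-fold, with list medians of 0.31 and 0.46. In the Fgf18/Myoc cells the list medians of 0.30 and 0.36 lay above those of all ranked genes (-0.11 and -0.15). The median of all genes in the outer bulge cells is not given.

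The list of YAP and TAZ targets also holds genes of the pathway itself, Yap1 and Wwtr1 among them. Of its 6 ranked genes, none was past 1.5-fold at 2 weeks and 4 were lower at 3 weeks. The 3-week list median was -0.81 against -0.18 in the outer bulge. Ccn2 stood at 138, 197 and 61.3 CPM, Ccn1 at 1049, 877 and 562 CPM, the junction protein gene Amotl1 at 57.0, 55.8 and 28.7 CPM and Wwtr1, which encodes TAZ, at 167, 119 and 102 CPM. All 4 remained past 1.5-fold lower in the thinned cells, on 9 to 116 UMIs per library. The list of EGF ligands and receptors also holds Errfi1, an inhibitor of the receptor. Its 3-week list median was -1.09 against -0.28 in the outer bulge. Of 5 ranked genes in that list, 2 were lower at 2 weeks and 4 at 3 weeks. The 4 were Areg, Errfi1 (381, 220 and 174 CPM), Epgn (122, 66.7 and 57.4 CPM) and Hbegf. For Areg, 89.1% of the control UMIs came from 1 cell. None of these calls remained in the thinned cells, where the 3-week ratios were 2.95 for Areg, 1.53 for Epgn, 0.774 for Errfi1 and 0.918 for Hbegf, and the list median was 0.24. The difference between Fgf18/Myoc and outer bulge cells in these medians was not tested.

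Bulge matrix and adhesion genes had 3 of 16 lower at 2 weeks and 5 of 17 at 3 weeks, and none higher. Itgb1, the main integrin beta subunit, stood at 240, 192 and 123 CPM, Lama3 of laminin-332 at 127, 77.2 and 74.2 CPM and the E-cadherin gene Cdh1 at 269, 215 and 163 CPM. At equal depth the 3-week ratios of Itgb1 (0.512) and Lama3 (0.586) became 0.886 and 0.962, and 1 of the 3 and 3 of the 5 calls remained, Cdh1 among them. Immediate early genes had 2 of 25 higher at 2 weeks, Hes1 and Fos (4946, 7911 and 6934 CPM). At 3 weeks 5 of 24 were higher, among them Jund (1449, 1536 and 2452 CPM) and Klf2 (130, 190 and 235 CPM), and 4 were lower, among them Egr3 (223, 211 and 94.0 CPM) and Fosl1 (571, 449 and 307 CPM). In the thinned cells 4 of the 5 and all 4 of these 3-week calls remained, so this list had members on both sides at 3 weeks.

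Signals that hold the bulge at rest differed by member. In the BMP and TGF-beta list 1 of 16 was higher and 1 lower at 2 weeks, and 3 of 18 higher and 5 lower at 3 weeks. The BMP target genes Id1 (803, 1200.1 and 1250.5 CPM) and Id3 (1179, 1864 and 1861 CPM) and the BMP antagonist Nog (32.4, 42.7 and 62.3 CPM) were higher at 3 weeks. For Nog the ratio of 1.92 became 1.01 in the thinned cells and 1.09 in the cells without Krt14. The inhibitory Smad7 (216, 181 and 103 CPM) and the activin antagonist Fst (888, 740 and 470 CPM) were lower, with thinned ratios of 0.731 and 0.642. Among FGF genes other than Fgf18, Dusp6 stood at 191, 135 and 88.0 CPM (0.711 and 0.462, the latter 0.677 in the thinned cells) and Fgfr1 had ratios of 1.11 and 1.16. Among stem cell transcription factors, Tbx1 (55.0, 87.3 and 105 CPM) and Barx2 (74.6, 119 and 140 CPM) were higher at both times, though the 2-week ratio of Barx2 was 1.23 in the thinned cells, and Klf5 (460, 347 and 237 CPM) and Runx1 (309, 204 and 164 CPM) were lowest at 3 weeks. No gene of 8 Wnt genes was past 1.5-fold at 2 weeks, and 1 of 9 was higher at 3 weeks.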

How the data were processed

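Single-cell suspensions of back skin were made by collagenase I and then trypsin digestion and loaded on 10x Genomics 3′ chemistry, per the labels' protocols. The deposited matrices hold raw UMI counts per gene and barcode, which the authors made with Cell Ranger 6.1.2, per the file headers. The build was mm10 per the submitters' processing notes. No source used here gives the gene annotation's release or whether intronic reads were counted. Barcodes under 500 genes (363, 960 and 754) or with at least 15% mitochondrial UMIs (236, 315 and 439) were left out, and Scrublet calls were kept in the main values. The Fgf18/Myoc cells, the comparison cells and the gene lists were chosen with earlier results of these data known.

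UMIs were summed per library and kind of cell and scaled to CPM. Shares carry Clopper-Pearson, CPM values exact Poisson and ratios exact conditional 95% intervals. With 1 library per group there was no test. A gene was ranked with at least 50 UMIs over both libraries and at least 50 CPM in 1 of them; ratios against 0 used a floor of 3 counts per library. Named genes were the 5 rule genes and Piezo1, the 15 with the largest and the 15 with the smallest ratio to outer bulge cells (at least 50 CPM in every library), the 10 with the largest fold per comparison and side, and up to 4 per list; ribosomal, mitochondrial, haemoglobin, sex-linked and unnamed genes were left out, and 1 of the genes the rule names is not reported here. Genes outside this rule, in the Krt14 split and among those found in many cells, were chosen after their values were seen. Neighbours came from 30 principal components of 2000 variable genes. Thinning drew 5000 UMIs per cell and left out 3, 133 and 54 shallower Fgf18/Myoc cells, and 240, 1324 and 842 of all keratin-gated cells. Alternatives covered the number of rule genes, depth, doublets, mitochondrial and keratin limits, scaling, averaging over cells and count limits. Reading the list counts again in the thinned cells was added after seeing the data.

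The counting of 2-fold genes was tested on simulated counts of 2740 genes at 2 weeks and 2856 at 3 weeks. All of 50 genes set 3-fold higher and of 50 set 3-fold lower (100%) were past 2-fold in both comparisons. Of the unchanged genes, 0% of 2540 and 0.113% of 2656 were past it. The simulation drew counting error only, without variation between cells or libraries, and changed only genes of at least 100 UMIs and CPM. It therefore gives no rate of false calls for the real libraries. Versions were Python 3.11.15, scanpy 1.11.5, scipy 1.17.1, numpy 2.4.6, pandas 2.3.3 and matplotlib 3.10.9.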

Additional observations from a re-analysis of the deposited data

Results flagged for a closer look

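Ratios to control of 9 results in Fgf18/Myoc cells lay on the opposite side of 1 from another group under the same contrast, and no such difference was tested. All 9 rest on few cells or change with the cells included. At 3 weeks the ratio of Wfdc21, a secreted whey acidic protein family member, was 21.9 in Fgf18/Myoc cells and 0.303 in outer bulge cells, and that of the linker histone gene Hist1h1b was 57.1 and 0.392. The histone gene Hist1h2ae had 7.91 and 0.401. In the other direction at 3 weeks, the suprabasal keratin gene Krt1 had 0.0888 and 2.19, the metallothionein Mt4 0.121 and 1.68, and Hpgds, the haematopoietic prostaglandin D synthase, 0.0560 and 1.64 against the floor of 3 counts. At 2 weeks Cd74, the MHC class II invariant chain, had 20.8 in Fgf18/Myoc cells and 0.452 in outer bulge cells, and the cystatin gene Cstdc5 had 0.214 and 2.10. The fibroblast gene Dcn had a ratio of 0.172 at 2 weeks and 3.73 at 3 weeks within the Fgf18/Myoc cells, found in 10, 4 and 11 cells.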

How the results depend on the processing

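No paired analysis was possible because each group was 1 library. Of 212 results for named genes, 63 were at least 2-fold from the control, and 31 of these turned direction under at least 1 alternative (82 of 819 values, in 25 genes). Of the 149 under 2-fold, which are not listed below, 45 did so (108 of 1937 values), among them Sncg, Ramp1, Smoc1 and, at 2 weeks, Thbs1. With at least 2 of the 5 genes the shares were 6.93%, 13.0% and 4.59%, and 15 genes at 2 weeks and 31 at 3 weeks were at least 2-fold higher. With at least 4 they were 1.12%, 2.43% and 1.14%, with 82 genes higher and 96 lower at 2 weeks. Thinning gave 1.75%, 3.31% and 1.5%, 82 genes higher and 67 lower at 2 weeks, 92 lower at 3 weeks, Piezo1 ratios of 1.31 and 0.517, and 64 genes higher and 75 lower than in the outer bulge. A keratin limit of 1% gave knockout shares of 7.16% and 3.33%. Median of ratios scaling gave 96 higher and 89 lower at 3 weeks. Limits of 100 UMIs and CPM gave 12 and 12 genes at 2 weeks and 19 and 69 at 3 weeks, and limits of 20 gave 84 and 103, then 166 and 336. Chosen after seeing the data, keeping cells with at least 3 outer bulge genes gave knockout shares of 4.85% and 2.03%, and keeping cells without Krt14 gave 72 genes higher and 107 lower at 2 weeks and a 3-week Piezo1 ratio of 0.0890. The log2 ratios that turned among results at least 2-fold from the control were as follows. With at least 2 genes they were at 3 weeks Crct1 -1.21, Epgn 0.45. With at least 4 genes they were at 2 weeks Lor -2.49, Wfdc21 -1.73, Pdk4 0.77, Cstdc5 1.81, Ifi27l2a 0.0062, Krt79 3.14, Defb6 4.24, Cst6 2.50, H2-Q7 0.11 and at 3 weeks Wfdc21 -0.84, Cstdc5 1.39, Areg 0.58, Ptgs2 0.20, H2-Q7 0.34. After thinning they were at 2 weeks Lor -0.74, Wfdc21 -2.20, Cd74 -1.46, Asprv1 -2.78, Pdk4 1.12, Cstdc5 1.5, Krt79 0.61, Hpgds 0.12, H2-Q7 0.97 and at 3 weeks Hist1h1b -2.35, Meg3 -0.18, Cxcl2 -0.76, Hist1h2ae -0.18, Aebp1 -0.76, Hpgds 0.82, Cstdc5 1.24, Pdk4 0.82, Areg 1.56, Epgn 0.62, Ptgs2 2.70, H2-Q7 1.11. With the keratin limit of 1% they were at 2 weeks Lor -1.41, Wfdc21 -1.93, Cd74 -0.052, Crct1 -0.026, Pdk4 1.66, Cstdc5 1.74, Krt79 1.32, Defb6 2.37, Cst6 0.10 and at 3 weeks Cxcl2 -2.38, Cstdc5 0.43, Krt1 2.62, Pdk4 1.21, Mt4 2.38, Krt10 2.10, Areg 2.79. With at least 3 outer bulge genes they were at 2 weeks Cstdc5 2.50 and at 3 weeks Cstdc5 0.95. Without Krt14 they were at 2 weeks Lor -1.36, Wfdc21 -2.59, Cd74 -2.59, Asprv1 -1.27, Angptl7 -1.01, Cstdc5 1.16, Krt79 1.08, Defb6 1.88, Cst6 0.55, H2-Q7 0.71 and at 3 weeks Hpgds 1.62, Krt1 1.41, Pdk4 0.033, Mt4 0.033, Krt10 1.67, Areg 0.033, Epgn 3.03, H2-Q7 0.52. With the highest cell of each library left out they were at 2 weeks Lor -1.21, Wfdc21 -0.39, Cstdc5 2.21, Krt79 0.42, Defb6 1.79, Cst6 0.75 and at 3 weeks Cxcl2 -1.57, Areg 0.96. As a mean over cells they were at 3 weeks Areg 0.20. Leaving out called doublets and cells with at least 10% mitochondrial UMIs turned none. Most of these genes rest on few cells; otherwise the cause was not tested.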
